A study of Mus musculus with 11 samples.

Results

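The data concern 9 genes whose products carry costimulatory signals of T cells: Tnfrsf4, Tnfrsf8, Tnfrsf9, Tnfrsf18, Cd27, Cd28, Icos, Cd40lg and Tnfsf11. They were chosen by name, from what their proteins do, with earlier results of these data known. All 9 were found among the 18194 genes that could be named, and 15 of the 45101 probe sets of the array belong to them. Expression was measured on 11 Affymetrix arrays, 1 per sample, of T cells taken from mouse spleens by negative magnetic bead selection. The donors were female, 3 to 4 months old, and either crbn-/- (knockout) or C57BL6 wild type. Crbn encodes cereblon, which picks the proteins that a cullin ubiquitin ligase marks for breakdown and which binds thalidomide and its derivatives. The cells were activated for 12 hours with plate-bound anti-CD3 at 5 µg/ml and soluble anti-CD28 at 1 µg/ml, or were naive. The groups held 3 knockout activated, 2 wild-type activated, 3 knockout naive and 3 wild-type naive arrays. The labels do not say how long the naive cells were kept in culture, so time in culture and stimulation cannot be told apart. Arrays within a group are labelled as biological replicates without naming the animals behind them, and p-values measure the spread between these arrays.

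A T cell that meets antigen needs a second signal beside its antigen receptor. Cd28 gives that signal from the start, through B7 proteins on the antigen-presenting cell, and anti-CD28 antibody takes the place of those proteins in culture. Icos, a relative of Cd28, and several receptors of the TNF receptor superfamily act later: Tnfrsf4 encodes OX40, Tnfrsf8 CD30, Tnfrsf9 4-1BB and Tnfrsf18 GITR, and all of them signal through TRAF adaptors to NF-kappaB. Cd27 belongs to the same superfamily and is already present on resting T cells. Cd40lg (CD40 ligand) and Tnfsf11 (RANKL) are ligands that T cells show to B cells, dendritic cells and other partners.

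The arrays stood close together within a group, with Pearson correlations of 0.994 to 0.998 over the 18194 genes, each read by its brightest probe set. Values are log2 levels after robust multi-array averaging (RMA), so a difference of 1 is a 2-fold change, and levels of different probe sets cannot be set against each other. The lower quartile of an array lay between 4.57 and 4.68, and none of the 9 genes' main probe sets fell below it in any array. Crbn stood lower in every knockout array than in every wild-type array of the same state by all 3 of its probe sets. By 1423095_s_at it averaged 8.68 ± 0.09 in knockout activated and 9.59 ± 0.17 in wild-type activated arrays (SD, n = 3 and 2), and 8.99 ± 0.08 in knockout naive and 10.12 ± 0.08 in wild-type naive arrays (SD, n = 3 each). The sources used here do not say which part of the gene was deleted or whether these probes lie in it. Of 7 T cell markers, 0 lay below the lower quartile throughout a group, and the same was true of the 7 measured markers of B cells. It was also true of 8 macrophage and monocyte and 4 NK cell markers, so this count does not set cell types apart. The summed level of the T cell markers was 14.15 to 14.25 in knockout activated, 14.26 to 14.34 in wild-type activated, 14.99 to 15.02 in knockout naive and 14.87 to 15.03 in wild-type naive arrays. The summed B cell markers lay at 12.41 to 12.59, 11.98 to 12.36, 13.75 to 13.97 and 13.58 to 13.72 in the same 4 groups. That sum, in which Ighm is the brightest marker, was thus lower in activated than in naive arrays, and higher in every knockout array than in every wild-type array of the same state. Taken singly, 5 of the 7 B cell markers fell with activation in each genotype and Ms4a1 and Pax5 did not pass. Between the genotypes 0 of the 7 passed. Knockout arrays stood above all wild-type arrays for 2 of 7 in activated cells (Cd79b and Ighm) and 1 of 7 in naive cells (Blk), with overlap for the rest. The summed T cell markers were slightly lower in every knockout activated than in every wild-type activated array. Singly, 4 of the 7 (Cd3e, Cd3d, Lat and Cd5) were lower in every knockout activated array and 3 overlapped. In naive cells 1 of the 7 (Thy1) was higher in every knockout array and 6 overlapped. Between the genotypes 0 of the 7 T cell markers passed, and their part in the genotype comparisons was not tested. Among all genes, the genotypes did not overlap, in either direction, for 19.4% in activated and 20.4% in naive cells. In RNA of a whole sample, fewer cells of a type and less RNA per cell cannot be told apart.

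The 9 genes lie on 5 chromosomes. Tnfrsf4 and Tnfrsf18 are next to each other on chromosome 4, with 0 coding genes between them, and Tnfrsf8 and Tnfrsf9 lie on the same chromosome with 71 coding genes between them. Cd28 and Icos are on chromosome 1, with the inhibitory receptor gene Ctla4 as the single coding gene between them. Cd27 is on chromosome 6, as is Crbn itself, Tnfsf11 is on chromosome 14 and Cd40lg on chromosome X.

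Promoter sequences were at hand for 6 of the genes, 7 start sites in all, from RefSeq on the build GRCm38.p6 (250 bases before to 50 after each start). Those of Cd28, Icos and Cd40lg were not used here. The sequences were searched on both strands for the NF-kappaB consensus, for the AP-1 motif TGANTCA and for the NFAT core GGAAA, because the antigen receptor and CD28 act on these 3 factors. The upstream 250 bases are given here, 5′ to 3′ on the strand of the gene, for the 2 start sites that held an NF-kappaB match and for Tnfrsf4, which rose clearly on activation and held neither that motif nor AP-1. Capitals mark the NF-kappaB match, here a pair of overlapping matches, and the AP-1 match. They are at chr4:150927749-150927998 on the plus strand for Tnfrsf9, chr4:145315165-145315414 on the minus strand for Tnfrsf8, and chr4:156013445-156013694 on the plus strand for Tnfrsf4.
Tnfrsf9, second start: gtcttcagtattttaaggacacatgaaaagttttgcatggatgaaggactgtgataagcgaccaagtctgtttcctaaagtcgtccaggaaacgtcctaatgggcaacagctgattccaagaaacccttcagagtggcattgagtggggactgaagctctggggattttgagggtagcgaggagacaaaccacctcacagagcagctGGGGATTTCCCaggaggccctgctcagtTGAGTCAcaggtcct
Tnfrsf8: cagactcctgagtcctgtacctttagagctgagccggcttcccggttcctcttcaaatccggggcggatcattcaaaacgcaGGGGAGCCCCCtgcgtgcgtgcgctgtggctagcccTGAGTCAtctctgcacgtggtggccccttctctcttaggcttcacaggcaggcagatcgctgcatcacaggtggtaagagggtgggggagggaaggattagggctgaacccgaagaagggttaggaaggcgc
Tnfrsf4: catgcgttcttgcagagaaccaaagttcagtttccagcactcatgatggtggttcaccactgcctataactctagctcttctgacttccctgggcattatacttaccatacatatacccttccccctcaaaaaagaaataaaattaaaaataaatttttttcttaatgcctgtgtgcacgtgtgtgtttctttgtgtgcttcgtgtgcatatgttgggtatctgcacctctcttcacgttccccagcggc
In the second Tnfrsf9 start the NF-kappaB matches covered bases -43 to -34 and -42 to -33 before the start, and an AP-1 match covered -15 to -9. An NFAT core on the opposite strand, -38 to -34, overlapped the NF-kappaB matches. In Tnfrsf8 the NF-kappaB matches lay at -168 to -159 and -167 to -158, and the AP-1 match at -132 to -126. The NF-kappaB consensus was thus in 2 of 7 start sites, against 8.46% of all 32851 promoters of the table, AP-1 in 2 of 7, against 7.81%, and both together in 2 of 7, against 0.539%. The NFAT core was in 6 of 7, against 61.3% of all promoters. A match is a description of these letters, not evidence of binding, and no binding was measured here.

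Activation was compared with the naive state in each genotype on its own. With activation, 6 of the 9 genes rose, 1 fell and 2 did not pass the test, in knockout and in wild-type cells, and the genes were the same in both: Tnfrsf9, Tnfsf11, Tnfrsf4, Icos, Tnfrsf18 and Tnfrsf8 rose, Cd27 fell, and Cd28 and Cd40lg did not pass. The test was limma's moderated fit with Benjamini-Hochberg adjustment over 18194 genes, and a gene passed at an adjusted p under 0.05. In knockout cells 20.7% of all genes rose and 22.4% fell by this rule, and in wild-type cells 20.2% rose and 20.9% fell. The median difference of the 9 genes was 0.65 log2 in knockout cells, where that of all genes was -0.03. In wild-type cells it was 0.81 log2, where that of all genes was 0.06. In each genotype, the activated and the naive arrays of the 7 genes that passed did not overlap, beside 52.5% of all genes in knockout and 57% in wild-type cells.

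**Figure D1:**
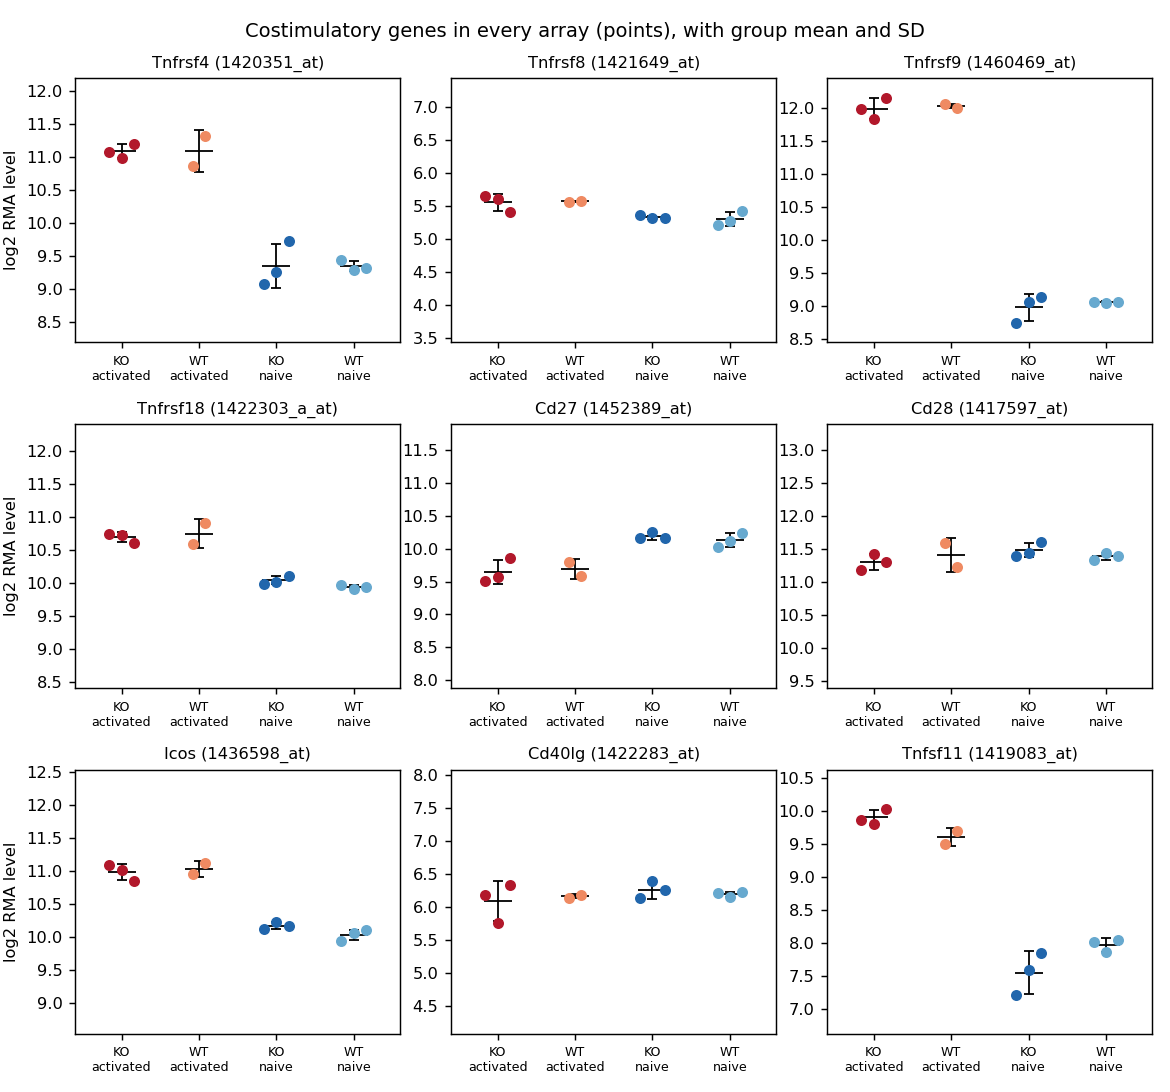
Level of the 9 genes in every array (vertical axes, log2 RMA level, each panel spanning the same number of log2 units; horizontal axes, the 4 groups), with 1 point per array, a long bar for the mean and whiskers for the SD. Activated arrays stand 3.01 log2 (knockout) and 2.98 log2 (wild type) above naive arrays for Tnfrsf9 and below them for Cd27, and the 4 groups overlap for Cd28 and Cd40lg.

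Tnfrsf9 encodes 4-1BB, a receptor that appears on T cells after activation and sustains CD8+ T cells in particular. By its brightest probe set (1460469_at) it read 11.98, 11.84 and 12.16 in knockout activated arrays, against 8.74, 9.06 and 9.14 in knockout naive arrays. Wild-type activated arrays read 12.06 and 12.01, against 9.06, 9.04 and 9.07 in wild-type naive arrays. Every activated array stood far above every naive array, and the genotypes overlapped within each state. The difference was 3.01 log2 in knockout cells (SE 0.104, 8.08-fold, limma adjusted p = 3.16e-10) and 2.98 log2 in wild-type cells (SE 0.116, 7.88-fold, limma adjusted p = 1.87e-09). By size of rise Tnfrsf9 was number 34 of 18194 genes in knockout cells and number 23 in wild-type cells. Its other probe sets disagreed with each other. Probe set 1428034_a_at rose by 4.26 log2 in knockout cells and by 4.07 log2 in wild-type cells, or 19.2-fold and 16.8-fold. Probe set 1421481_at lay between 4.97 and 5.44 in all 11 arrays and differed by -0.01 in knockout and -0.21 in wild-type cells, neither of which passed (limma adjusted p = 0.935 and 0.162 over all probe sets).

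Tnfrsf4 encodes OX40, which prolongs the survival of activated and memory CD4+ T cells and is also carried by regulatory T cells. Knockout activated arrays read 11.07, 10.99 and 11.20, against 9.07, 9.26 and 9.72 in knockout naive arrays. Wild-type activated arrays read 10.86 and 11.32, against 9.44, 9.29 and 9.31 in wild-type naive arrays. The naive knockout arrays spread more widely (SD 0.34) than the naive wild-type arrays (SD 0.08), yet all activated arrays were above all naive ones. The rise was 1.74 log2 in knockout cells (SE 0.151, 3.33-fold, limma adjusted p = 5.35e-07) and 1.74 log2 in wild-type cells (SE 0.168, 3.35-fold, limma adjusted p = 2.5e-06).

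Tnfrsf18 encodes GITR, another receptor that regulatory T cells carry at rest and other T cells gain on activation. It read 10.74, 10.73 and 10.61 in knockout activated arrays, against 9.99, 10.02 and 10.10 in knockout naive arrays. In wild-type cells the activated arrays read 10.59 and 10.90, against 9.97, 9.91 and 9.94 in naive arrays. The groups of each genotype were clearly apart, with a rise of 0.65 log2 in knockout (SE 0.0834, limma adjusted p = 1.99e-05) and 0.81 log2 in wild-type cells (SE 0.0932, limma adjusted p = 1.21e-05). Although it is the direct neighbour of Tnfrsf4, its measured rise was under 1 log2 in both genotypes, where that of Tnfrsf4 was 1.74.

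Tnfrsf8 encodes CD30, a receptor of activated lymphocytes. Its levels were low, at 5.65, 5.60 and 5.41 in knockout activated arrays, against 5.36, 5.31 and 5.31 in knockout naive arrays. In wild-type cells they were 5.56 and 5.57 in activated arrays, against 5.21, 5.27 and 5.42 in naive arrays. The ranges came close to each other, and the rise was 0.23 log2 in knockout (SE 0.0797, limma adjusted p = 0.0349) and 0.27 log2 in wild-type cells (SE 0.0892, limma adjusted p = 0.0287). It did not hold when single arrays were left out: without knockout activated replicate 1 the rise was 0.18 log2 with an adjusted p of 0.142, and the call was also lost without knockout activated replicate 2, any knockout naive array, either wild-type activated array, or wild-type naive replicate 1 or 2.

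Cd27, whose product is carried by resting T cells and binds CD70, was the single member that fell. Its levels were 9.51, 9.56 and 9.86 in knockout activated arrays, against 10.15, 10.26 and 10.16 in knockout naive arrays. Wild-type activated arrays read 9.80 and 9.59, against 10.02, 10.12 and 10.24 in wild-type naive arrays. It fell by 0.54 log2 in knockout cells (SE 0.0991, limma adjusted p = 0.000457) and by 0.43 log2 in wild-type cells (SE 0.111, limma adjusted p = 0.00637). Without wild-type activated replicate 2 the wild-type difference was -0.33 with an adjusted p of 0.0802. The summed T cell markers were also lower in activated than in naive arrays, as given above, and their part in this difference was not tested.

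**Figure D2:**
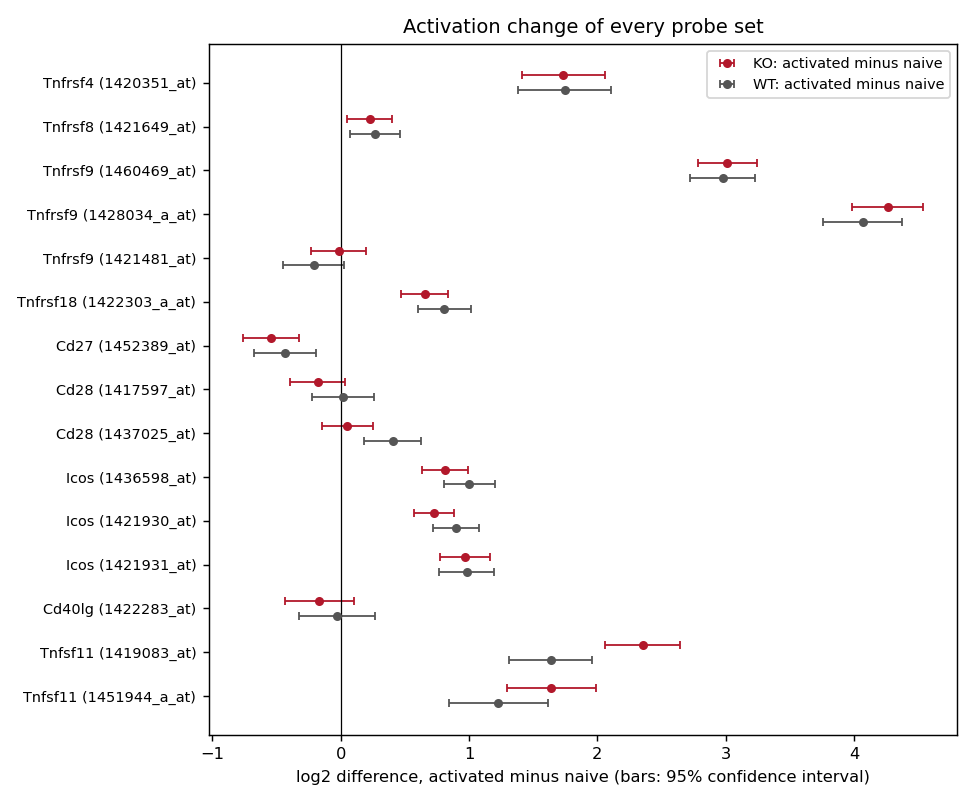
Difference between activated and naive cells (horizontal axis, log2, with the 95% confidence interval as a bar) for all 15 probe sets of the 9 genes, in knockout cells (red, upper of each pair) and wild-type cells (grey, lower). The 3 Icos and the 2 Tnfsf11 probe sets lie to the right of 0, whereas the Tnfrsf9 probe sets lie at 4.26, 3.01 and -0.01 in knockout cells.

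Icos encodes the inducible relative of Cd28, which supports follicular helper and regulatory T cells. By its brightest probe set (1436598_at) it read 11.10, 11.02 and 10.86 in knockout activated arrays, against 10.12, 10.23 and 10.18 in knockout naive arrays. The wild-type activated arrays read 10.96 and 11.12, against 9.95, 10.06 and 10.10 in wild-type naive arrays. Activated arrays were all above naive arrays, by 0.81 log2 in knockout (SE 0.0813, limma adjusted p = 2.01e-06) and 1.00 log2 in wild-type cells (SE 0.0909, 2.01-fold, limma adjusted p = 1.44e-06). The other probe sets rose as well, 1421930_at by 0.73 log2 in knockout and 0.90 log2 in wild-type cells and 1421931_at by 0.97 log2 in knockout and 0.98 log2 in wild-type cells.

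Cd28 encodes the constitutive costimulatory receptor that the anti-CD28 antibody binds. Probe set 1417597_at read 11.19, 11.43 and 11.30 in knockout activated arrays, against 11.40, 11.45 and 11.61 in knockout naive arrays. In wild-type cells it read 11.59 and 11.24 in activated arrays, against 11.34, 11.44 and 11.40 in naive arrays. All 4 groups overlapped, and the differences of -0.18 in knockout (95% interval -0.39 to 0.03, limma adjusted p = 0.175) and 0.02 in wild-type cells (95% interval -0.22 to 0.26, limma adjusted p = 0.905) did not pass. The other probe set, 1437025_at, differed by 0.05 in knockout cells (limma adjusted p = 0.708 over all probe sets) and rose by 0.41 log2 in wild-type cells (limma adjusted p = 0.00614 over all probe sets). By that probe set wild-type activated arrays read 11.67 and 11.39, against 11.07, 11.21 and 11.09 in wild-type naive arrays. The gap between the genotypes by 1437025_at was -0.35 log2 and did not pass a test of its own (limma adjusted p = 0.29 over all probe sets). With the arrays quantile-normalized once more, the knockout difference of 1417597_at was -0.28 log2 and passed (limma adjusted p = 0.0386).

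Tnfsf11 encodes RANKL, the ligand through which T cells act on dendritic cells and on the precursors of osteoclasts. By its brighter probe set (1419083_at) it read 9.87, 9.81 and 10.04 in knockout activated arrays, against 7.21, 7.59 and 7.85 in knockout naive arrays. Wild-type activated arrays read 9.51 and 9.71, against 8.01, 7.86 and 8.04 in wild-type naive arrays. The rise was 2.35 log2 in knockout cells (SE 0.134, 5.11-fold, limma adjusted p = 1.31e-08) and 1.64 log2 in wild-type cells (SE 0.15, 3.11-fold, limma adjusted p = 1.63e-06). Among all genes it was number 98 by size of rise in knockout cells and number 176 in wild-type cells. The second probe set, 1451944_a_at, which lay near the lower end of the scale in naive cells, also rose, by 1.64 log2 in knockout and 1.23 log2 in wild-type cells.

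Cd40lg encodes CD40 ligand, through which helper T cells activate B cells. Its levels were 6.18, 5.76 and 6.34 in knockout activated arrays, against 6.13, 6.40 and 6.25 in knockout naive arrays. Wild-type activated arrays read 6.14 and 6.19, against 6.21, 6.15 and 6.22 in wild-type naive arrays. No group was apart from another, and the differences of -0.17 in knockout (95% interval -0.43 to 0.10, limma adjusted p = 0.324) and -0.03 in wild-type cells (95% interval -0.33 to 0.27, limma adjusted p = 0.896) did not pass. The intervals leave room for a difference of up to 0.43 log2 at this time point. Cd40lg was read by 1 probe set only, and it was absent among genes above the median level.

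Regulatory T cells carry several of these receptors without stimulation, so their markers were followed beside them. Of 6 such markers 2 rose and 3 fell in knockout cells, and 2 rose and 2 fell in wild-type cells. Il2ra, the interleukin-2 receptor alpha chain that activated T cells gain, rose by 3.37 log2 in knockout and 2.90 log2 in wild-type cells. Foxp3, the defining transcription factor, averaged 6.63 ± 0.16 in knockout activated and 6.95 ± 0.28 in knockout naive arrays (SD, n = 3 each), and 6.76 ± 0.19 in wild-type activated and 6.90 ± 0.14 in wild-type naive arrays (SD, n = 2 and 3), and did not pass. The summed level of the 6 markers was 11.71 to 11.87 in knockout activated, 11.60 to 11.72 in wild-type activated, 11.91 to 12.17 in knockout naive and 11.77 to 12.03 in wild-type naive arrays. The markers did not move together, since Ikzf4 rose by 0.65 log2 in knockout and 0.81 log2 in wild-type cells, whereas Itgae (-2.64 log2 in knockout and -2.30 log2 in wild-type cells) and Ikzf2 (-1.14 log2 in knockout and -1.04 log2 in wild-type cells) fell. A change in the share of regulatory T cells cannot be read from such a sum, and its part in the rises of Tnfrsf4, Tnfrsf18 and Icos was not tested.

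Knockout cells were then compared with wild-type cells in each state. None of the 9 genes passed in activated cells, where 0.0605% of all genes did, and none in naive cells, where 0.148% did. At an unadjusted p under 0.05, 0 of the 9 genes differed in activated cells (1256 of 18194 genes in all) and 1 in naive cells (2642 in all). Knockout and wild-type arrays did not overlap for 1 of the 9 genes in activated cells, beside 19.4% of all genes, and for 3 of the 9 in naive cells, beside 20.4% of all genes. The median difference of the 9 genes was -0.05 log2 in activated cells, with -0.02 for all genes, and 0.06 log2 in naive cells, with 0.01 for all genes.

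**Figure D3:**
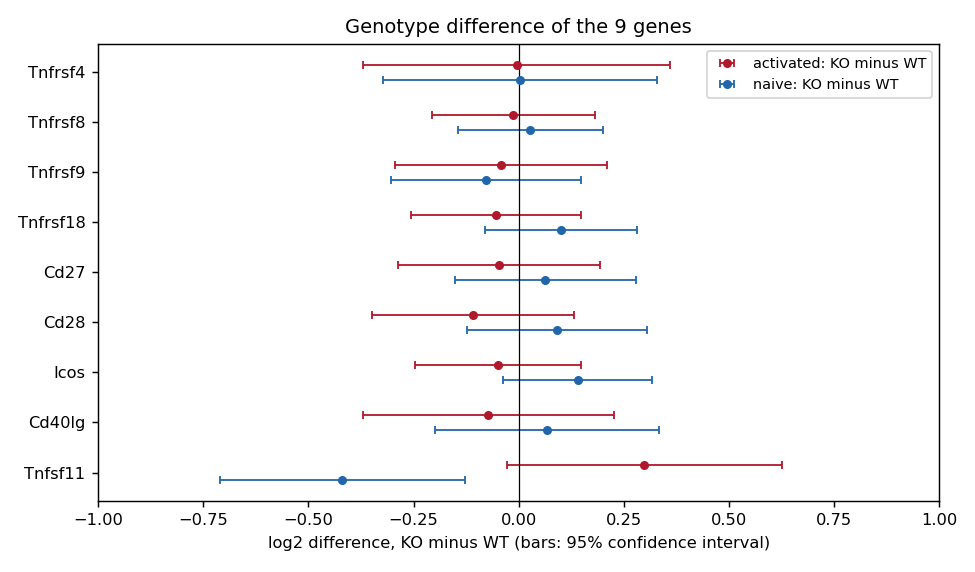
Difference between knockout and wild-type cells (horizontal axis, log2, with the 95% confidence interval as a bar) for the 9 genes in activated (red, upper of each pair) and naive cells (blue, lower). By the brightest probe sets, shown here, the intervals of 8 genes include 0 in both states. Tnfsf11 lies at 0.30 in activated and -0.42 in naive cells.

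By the brightest probe sets, in activated cells the estimates of the 8 genes other than Tnfsf11 ran from -0.11 for Cd28 to -0.0049 for Tnfrsf4, and the widest 95% interval was that of Tnfrsf4, -0.37 to 0.36 log2. In naive cells they ran from -0.08 for Tnfrsf9 to 0.14 for Icos, and the widest interval was again that of Tnfrsf4, -0.32 to 0.33 log2. Differences up to those bounds could not be resolved with these 11 arrays. Some second probe sets gave larger estimates, which did not pass either: Cd28 by 1437025_at differed by -0.22 in activated cells (95% interval -0.44 to 0.0059, limma adjusted p = 0.648 over all probe sets). In naive cells Tnfrsf9 by 1428034_a_at differed by -0.28 (95% interval -0.55 to 8e-04, limma adjusted p = 0.345 over all probe sets). Icos by 1421930_at differed by 0.22 in naive cells, with an interval that did not include 0 (95% interval 0.06 to 0.38, limma adjusted p = 0.208 over all probe sets). Tnfrsf9, the member with the largest rise on activation, differed by -0.04 in activated cells (95% interval -0.29 to 0.21) and by -0.08 in naive cells (95% interval -0.30 to 0.15). Cd27, which shares its chromosome with the deleted gene, differed by -0.05 in activated (limma adjusted p = 0.965) and by 0.06 in naive cells (limma adjusted p = 0.814).

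In naive cells, Icos and Tnfrsf18 were slightly higher in every knockout than in every wild-type array, without passing the test. For Icos the naive arrays read 10.12, 10.23 and 10.18 in the knockout and 9.95, 10.06 and 10.10 in the wild type, a difference of 0.14 log2 (95% interval -0.04 to 0.32, limma adjusted p = 0.458). By Icos probe set 1421930_at the naive arrays were apart too, with 9.73, 9.75 and 9.82 in the knockout and 9.49, 9.53 and 9.63 in the wild type. The difference was 0.22 log2 (95% interval 0.06 to 0.38, limma adjusted p = 0.208 over all probe sets). By 1421931_at they overlapped, with a difference of 0.07 log2. For Tnfrsf18 the naive difference was 0.10 log2 (95% interval -0.08 to 0.28, limma adjusted p = 0.624). The summed regulatory T cell markers of the naive arrays overlapped between the genotypes, with Itgae higher and Gpr83 lower in every knockout array and the other 4 overlapping. The summed B cell markers did not overlap, as given above, and the part of either was not tested.

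Tnfsf11 was lower in every knockout than in every wild-type array in naive cells and higher in every knockout array in activated cells. The naive groups were barely apart, with the highest knockout array at 7.8535 and the lowest wild-type array at 7.856. The naive difference was -0.42 log2 (95% interval -0.71 to -0.13, limma adjusted p = 0.2) and the activated difference 0.30 log2 (95% interval -0.03 to 0.63, limma adjusted p = 0.748). Without knockout naive replicate 1, the lowest array, the naive difference was -0.25 log2 with an adjusted p of 0.332. Leaving out each array in turn gave -0.57 to -0.25 log2 in naive and 0.20 to 0.40 log2 in activated cells. Under the 20 alternatives the naive difference passed 0 times, and its lowest limma adjusted p was 0.0541. By probe set 1451944_a_at the naive arrays read 5.01, 5.11 and 4.77 in the knockout and 5.42, 5.02 and 5.41 in the wild type, and the activated arrays read 6.66, 6.59 and 6.57 in the knockout and 6.16 and 6.86 in the wild type. The genotypes overlapped in both states by that probe set, with naive cells differing by -0.32 log2 and activated cells by 0.09 log2 (limma adjusted p = 0.379 and 0.94 over all probe sets). Beside the naive difference, 6 measured markers of red blood cells had summed levels of 9.59 to 11.5 in knockout and 11.1 to 13.0 in wild-type naive arrays, which overlapped. Of these markers 0 passed between the genotypes, and their part, like that of the B cell markers, was not tested.

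**Figure D4:**
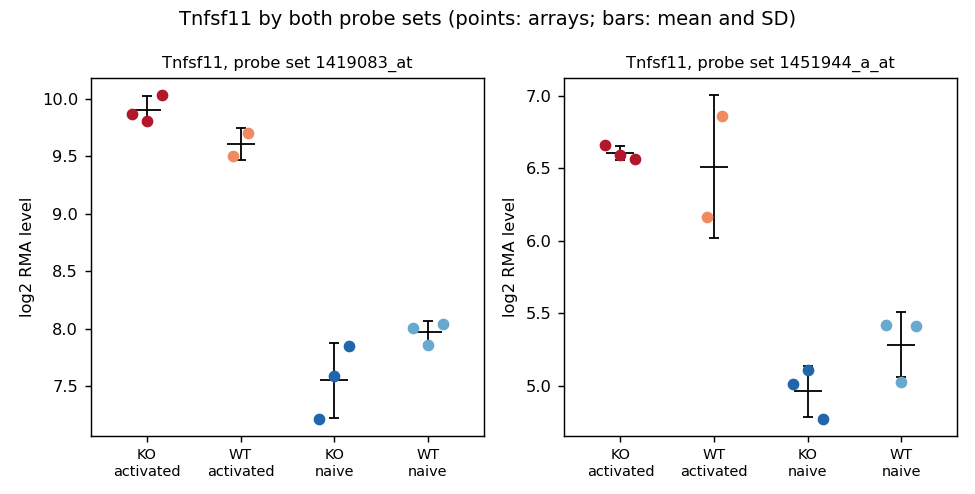
Tnfsf11 in every array by each of its 2 probe sets (vertical axes, log2 RMA level, with separate scales; horizontal axes, the 4 groups), with 1 point per array, a long bar for the mean and whiskers for the SD. By 1419083_at the knockout arrays are apart from the wild-type arrays in both states, and by 1451944_a_at they overlap.

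The interaction asked whether activation moved a gene by another amount in knockout than in wild-type cells. It passed for 0 of the 9 genes, with 0% of all genes past the threshold. At an unadjusted p under 0.05 it held 1 of the 9 genes, Tnfsf11, and 2515 of all 18194. For Tnfsf11 the rise was larger in knockout cells by 0.72 log2 (SE 0.202, 95% interval 0.28 to 1.16, limma adjusted p = 0.255). By its second probe set the gap was 0.41 log2 (95% interval -0.10 to 0.93, limma adjusted p = 0.447 over all probe sets). By the brightest probe sets, the other 8 genes had estimates between -0.20 for Cd28 and 0.04 for Tnfrsf9, with intervals that all included 0. By 1437025_at, the second probe set of Cd28, the estimate was -0.35 log2 (95% interval -0.65 to -0.06, limma adjusted p = 0.29 over all probe sets). That interval did not include 0, but the test did not pass. The median over the 9 genes was -0.11 log2, and over all genes -0.03.

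The binding partners of the 9 proteins were examined next, with 10 of 11 measured (Tnfsf18, the ligand of GITR, was not analysed here). In knockout cells 5 rose, 2 fell and 3 did not pass, and in wild-type cells 4 rose, 1 fell and 5 did not pass. The list's median difference was 0.26 log2 in knockout and 0.30 log2 in wild-type cells. Tnfsf8, the ligand of CD30, rose by 2.21 log2 in knockout and 1.85 log2 in wild-type cells, averaging 8.29 ± 0.29 in knockout activated and 6.09 ± 0.15 in knockout naive arrays (SD, n = 3 each). Cd70, the ligand of Cd27, rose 3.39-fold in knockout and 2.83-fold in wild-type cells. The receptor and its ligand thus moved in opposite directions, with Cd27 down and Cd70 up. Cd40, the receptor for CD40 ligand, rose by 1.41 log2 in knockout and 1.24 log2 in wild-type cells, and all 3 of its probe sets rose. Tnfsf9, the ligand of 4-1BB, rose by 1.08 log2 in knockout and 0.97 log2 in wild-type cells. Cd86, a B7 protein that binds Cd28, fell by 0.51 log2 in knockout and 1.00 log2 in wild-type cells by its brightest probe set. Its other probe set, 1449858_at, rose by 0.38 log2 in knockout cells, and its difference of -0.01 log2 in wild-type cells did not pass. Icosl, the ligand of Icos, fell by 0.59 log2 in knockout cells, and its difference of -0.21 log2 in wild-type cells did not pass. Its other probe set, 1426087_at, differed by -0.04 log2 in knockout and 0.04 log2 in wild-type cells and did not pass. B cells and other antigen-presenting cells are a main source of Cd40 and Cd86, and the summed B cell markers were lower in activated arrays. Of 8 macrophage and monocyte markers 6 fell and 0 rose in each genotype. Of 6 dendritic cell markers 2 fell in knockout and 3 in wild-type cells, and 0 rose. The part of these cell types was not tested.

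Other costimulatory genes of T cells, 9 receptors and the ligand Tnfsf14, showed both directions. Of the 10, all measured, 5 rose, 3 fell and 2 did not pass in knockout cells, and 5 rose, 2 fell and 3 did not pass in wild-type cells, with medians of 0.29 and 0.32 log2. Crtam, an adhesion receptor of activated T cells, rose by 2.67 log2 in knockout and 2.63 log2 in wild-type cells. Slamf1, a homophilic receptor that lymphocytes gain on activation, rose by 2.28 log2 in knockout and 2.38 log2 in wild-type cells. Tnfsf14 (LIGHT), a ligand made by activated T cells, rose by 1.94 log2 in knockout and 2.13 log2 in wild-type cells. Cd2, an adhesion receptor of resting and activated T cells, fell by 1.54 log2 in knockout and 1.26 log2 in wild-type cells.

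Among the 3 inhibitory relatives of Cd28, Pdcd1, which encodes PD-1, rose by 2.25 log2 in knockout and 2.54 log2 in wild-type cells. Ctla4, which competes with Cd28 for B7 proteins and lies between Cd28 and Icos, fell by 1.87 log2 in knockout and 1.33 log2 in wild-type cells by the single probe set that carried its name. It averaged 8.42 ± 0.08 in knockout activated and 10.29 ± 0.26 in knockout naive arrays (SD, n = 3 each), and 8.88 ± 0.04 in wild-type activated and 10.21 ± 0.11 in wild-type naive arrays (SD, n = 2 and 3). Of the 3 adjacent genes, Icos thus rose, Ctla4 fell and Cd28 did not pass by its brightest probe set. Btla rose by 0.44 log2 in wild-type cells, and its difference of 0.18 log2 in knockout cells did not pass.

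Behind the TNF receptor superfamily stand TRAF adaptors and the noncanonical NF-kappaB pathway, in which Relb and the Nfkb2 product form the active dimer. Of 10 measured genes 3 rose, 3 fell and 4 did not pass in knockout cells, and 4 rose, 3 fell and 3 did not pass in wild-type cells, with medians of 0.11 and -0.01 log2. Nfkb2 rose by 1.40 log2 in knockout and 1.33 log2 in wild-type cells by its brightest probe set, while its other one, 1429128_x_at, differed by 0.19 log2 in knockout and -0.0021 in wild-type cells and did not pass. Relb rose by 0.85 log2 in knockout and 0.86 log2 in wild-type cells. Tnfaip3, which encodes the NF-kappaB inhibitor A20, fell by 2.20 log2 in knockout and 2.18 log2 in wild-type cells, and its second probe set fell as well. Traf5, an adaptor of OX40, CD27 and CD30, fell by 1.31 log2 in knockout and 1.14 log2 in wild-type cells.

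Signalling partners of Cd28 and Icos were mostly lower in activated cells. Of 8 measured genes 0 rose and 7 fell in knockout cells, and 0 rose and 6 fell in wild-type cells, with medians of -0.66 and -0.63 log2. Pik3r1, the regulatory subunit of the phosphoinositide 3-kinase that both receptors recruit, fell by 1.60 log2 in knockout and 1.59 log2 in wild-type cells, and all 4 of its probe sets fell in both. Grap2 (GADS), an adaptor of the antigen receptor and Cd28, fell by 1.25 log2 in knockout and 0.94 log2 in wild-type cells. Prkcq, the protein kinase C isoform that Cd28 brings to the synapse, fell by 1.22 log2 in knockout and 1.05 log2 in wild-type cells. Grb2, an adaptor that binds Cd28, fell by 0.81 log2 in knockout and 0.71 log2 in wild-type cells by its brightest probe set, but its other one, 1449111_a_at, did not pass in either. The T cell markers were lower in activated arrays too, with 6 of 7 falling in each genotype and medians of -0.76 log2 in knockout and -0.55 log2 in wild-type cells. Their part in these differences was not tested. In the 5 lists of partner and pathway genes, 0 genes passed in either genotype comparison or in the interaction.

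**Figure D5:**
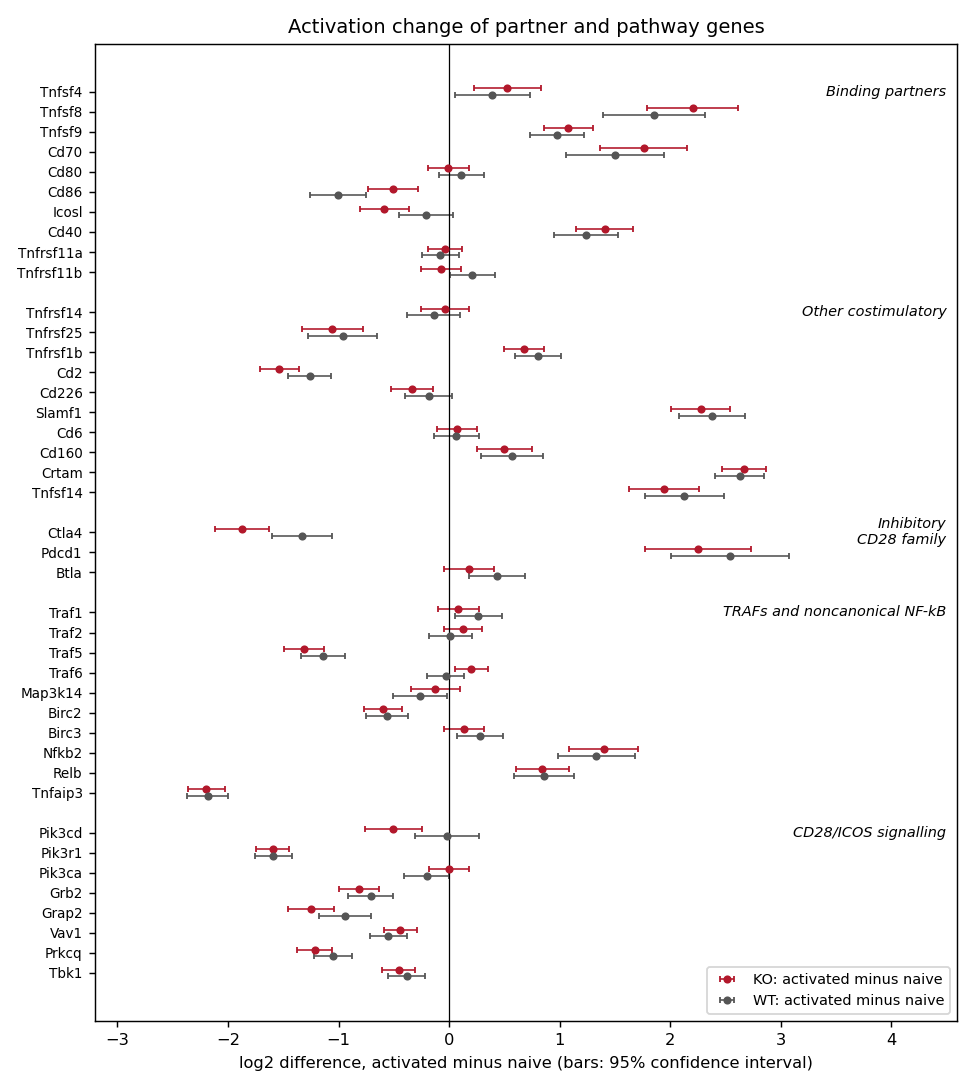
Difference between activated and naive cells (horizontal axis, log2, with the 95% confidence interval as a bar) for the binding partners, other costimulatory genes, inhibitory relatives of Cd28, TRAF and NF-kappaB genes and Cd28 and Icos signalling genes, in knockout cells (red, upper of each pair) and wild-type cells (grey, lower). In the signalling group at the bottom 7 of 8 genes fell in knockout and 6 of 8 in wild-type cells.

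For the 3 members that rose by more than 1 log2 in both genotypes, the genes of most similar pattern were those with the smallest root mean square distance over the 11 arrays, after each gene was centred on its own mean. Nearest to Tnfrsf9 were Egr2 at 0.105 log2 and Nr4a3 at 0.115 log2, both genes of transcription factors that antigen receptor signals induce, followed by Spry1, a regulator of receptor signalling, at 0.145 log2. Egr2 rose by 2.87 log2 in knockout and 2.93 log2 in wild-type cells. Nearest to Tnfrsf4 were Slc29a2, a nucleoside transporter gene, at 0.0836 log2, Map2k3os at 0.151 log2 and Ptprf, a receptor tyrosine phosphatase gene, at 0.155 log2. Nearest to Tnfsf11 were the zinc finger gene Plagl2 at 0.152 log2, Bend3 at 0.184 log2 and Ccdc86 at 0.186 log2. These 3 also had the larger estimate in knockout cells, as with Plagl2 at 2.22 log2 in knockout and 1.78 log2 in wild-type cells, which the rule favours because it sought arrays that move alike.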

How the data were processed

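Total RNA (100 ng per sample) of splenic T cells was hybridised to Affymetrix arrays of 1 colour. The submitters' processing notes name GCOS, RMA and Partek, with no versions given in the sources used here. RMA corrects background, quantile-normalizes and summarises probes, so shifts shared by a whole array are lost. The authors' deposited log2 RMA values of 45101 probe sets were used as they stood, with 0 missing.

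Symbols came from the platform annotation: 34958 probe sets had 1 symbol, 932 several and 9211 none, and 34754 were found by Entrez number in a RefSeq gene table of GRCm38.p6, with 0 symbols changed. The probe set of highest mean stood for a gene, which left 18194 genes. limma 3.58.1 in R 4.3.3 fitted 4 group means to all 11 arrays (residual degrees of freedom 7, prior 5.46) and gave 5 comparisons: activated against naive in each genotype, knockout against wild type in each state, and the interaction. Single probe sets were fitted over all 34958. P-values were adjusted by Benjamini-Hochberg, threshold 0.05, and intervals are 95%. The fit was tested on simulated data. Python 3.11.15, pandas 2.3.3 and matplotlib 3.10.9 were used for sequences and figures.

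The 9 members and the lists were chosen with earlier results of these data known. Named are all members with every probe set, of each list up to 4 genes of largest activation change in knockout cells past the threshold, and, for members that rose by over 1 log2, the 3 genes of most similar pattern. Cd86, Icosl, Btla and the cell type markers are outside this rule and were named after their values were seen, as was every second probe set of a list gene. Summed marker levels are log2 of the sum of linear values. Alternatives were the mean of a gene's probe sets, genes above the median level, a trended robust prior, only the compared arrays, quantile normalization again, median centring, array weights, replicate number as a block, and each array left out. Replicate numbers were not used to pair arrays, since the labels do not say what they share and not every same-numbered pair of arrays correlated above 0.1. The number of arrays limits the precision.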

Additional observations from a re-analysis of the deposited data

Results flagged for a closer look

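Tnfsf11 was flagged because all knockout arrays were below all wild-type arrays in naive cells and above them in activated cells, by its brighter probe set. In naive cells the gap was narrow, with the highest knockout array at 7.8535 and the lowest wild-type array at 7.856. The interaction, knockout minus wild type in the rise on activation, was 0.72 log2 (95% interval 0.28 to 1.16), and its test did not pass (limma adjusted p = 0.255). Leaving out single arrays gave 0.55 to 0.87 log2. By its second probe set the genotypes overlapped in both states, and the interaction was 0.41 log2 (95% interval -0.10 to 0.93, limma adjusted p = 0.447 over all probe sets). Among all genes, the genotypes did not overlap, in either direction, for 20.4% in naive and 19.4% in activated cells. How many genes were apart in opposite directions in both states was not counted.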

How the results depend on the processing

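The 6 rises and 1 fall kept their direction in both genotypes under every alternative run. Tnfrsf9, Tnfsf11, Tnfrsf4, Icos and Tnfrsf18 passed under all 20 in each genotype. Cd27 passed under 20 of 20 in knockout and 19 of 20 in wild-type cells. Tnfrsf8 passed under 13 of 19 in knockout and 12 of 19 in wild-type cells, being absent, like Cd40lg, among genes above the median level. Besides single arrays, its call was lost with the replicate block (0.23 log2, adjusted p = 0.0537 in knockout, and 0.26 log2, adjusted p = 0.0562 in wild-type cells), with only the compared arrays (0.27 log2, adjusted p = 0.0631) and with array weights (0.28 log2, adjusted p = 0.0539), both in wild-type cells.

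Direction changed only for differences that passed in none of the runs named here. In knockout minus wild-type activated cells these were Icos by the mean of probe sets (0.0153), Tnfrsf8 with quantile normalization again (0.0089) and median centring (7e-04), and Tnfrsf4 with median centring (0.0088) and array weights (0.0094). In naive cells they were Tnfrsf8 with quantile normalization again (-0.0012) and Tnfrsf4 with median centring (-0.0184) and array weights (-0.0178). For the interaction they were Tnfrsf8 (0.01) and Tnfrsf9 (-0.023) with quantile normalization again, Tnfrsf9 with the replicate block (-0.02), and Tnfrsf4 with median centring (0.0272) and array weights (0.0272). On activation in wild-type cells they were Cd28 with quantile normalization again (-0.0607) and array weights (-0.016), and Cd40lg with array weights (0.0046) and the replicate block (0.0167). The cause was not tested.

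Leaving out each array in turn spanned 0 in the following. On activation these were Cd40lg in knockout (-0.29 to 0.0014) and Cd28 in wild-type cells (-0.16 to 0.20). Between genotypes in activated cells they were Tnfrsf4 (-0.23 to 0.22), Tnfrsf8 (-0.0622 to 0.0593), Tnfrsf9 (-0.13 to 0.0362), Tnfrsf18 (-0.21 to 0.10), Cd27 (-0.15 to 0.0583), Cd28 (-0.29 to 0.0704), Icos (-0.13 to 0.0344) and Cd40lg (-0.19 to 0.10). In naive cells they were Tnfrsf4 (-0.18 to 0.14), Tnfrsf8 (-0.0162 to 0.0877), Tnfrsf9 (-0.16 to 0.0394) and Cd40lg (-0.0018 to 0.13). For the interaction they were Tnfrsf4 (-0.23 to 0.22), Tnfrsf8 (-0.10 to 0.0314), Tnfrsf9 (-0.0818 to 0.12), Tnfrsf18 (-0.31 to 0.0022) and Cd40lg (-0.26 to 0.0288).

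Same-numbered arrays of different groups deviated together weakly, with correlations of -0.30 to 0.39 over 15 pairs, 7 of them above 0.1. An array was closest to its own number in 17 of 30 checks. The checks depend on each other and no chance level was worked out for them, so they describe the data and not the design. With the number as a block, 277 genes in place of 27 passed between genotypes in naive cells, with 0 of the 9 members among them, and 12 in place of 11 in activated cells.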
